A study of Mus musculus with 12 samples.

Results

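The genes described here build and move cilia. They are 84 of the 32285 genes in the count matrix: 77 whose symbols begin with Dnah, Cfap, Rsph, Tekt or Ift and a number, and 7 others, namely Ccdc153, Tmem212, Meig1, Ak7, Sntn, Enkur and Foxj1. The rule uses symbols only, but the genes were chosen with earlier results of these data known, and the 7 others make up 7464 of the 20374 CPM (UMIs scaled to a common total) that the 84 genes reach in ependymal cells. UMIs (unique molecular identifiers, each counting 1 captured RNA molecule) were found for 81 of them, while Rsph6a, Cfap97d1 and Ift88os had none in any cell.

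Single cells came from the hippocampus of female C57/BL6J mice aged 9 weeks. The groups are PBS nonstim and PBS stim, which received phosphate-buffered saline, and Cisplatin nonstim and Cisplatin stim, which received cisplatin, a platinum drug that crosslinks DNA. The stim groups were also exposed to light flicker and sound pulses at 40 Hz for 1 h a day over 21 days, and all tissue was collected on day 22. Each group had 3 libraries: replicate 1 from 1 animal, with library prefix 20 and called the first batch here, and replicates 2 and 3 from pools of 2 animals, with prefix 21 and called the second batch. A pooled library counts once, so the p-values measure the spread between libraries.

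A motile cilium is driven by the axoneme, a ring of microtubule doublets around a central pair. Dynein heavy chains (Dnah) are the motors of its outer and inner arms, radial spokes (Rsph) relay signals between the central pair and the arms, tektins (Tekt) lie along the doublets, and many Cfap proteins are further parts of the axoneme. Intraflagellar transport (Ift) carries cargo along motile and non-motile cilia, with complex IFT-B on the way to the tip and IFT-A on the way back. Foxj1 is the forkhead factor that, together with RFX factors, switches on the motile cilium programme. In the brain, ependymal cells line the ventricles and carry tufts of beating cilia, and the epithelial cells of the choroid plexus, which secrete cerebrospinal fluid, carry cilia as well.

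RefSeq promoter windows on GRCm38.p6, from 250 bases before to 50 bases after the start of a gene, were matched for 67 of the 84 genes. The short RFX motif, GTTGCC, known as an X-box arm, lay on either strand in 26 of the 67 (38.8%) and in 14.1% of 27025 genes. The palindromic form of the motif, the full X-box, which can contain the shorter one, lay in 1 of 67 and in 0.529% of all genes. The forkhead motif TGTTTAC lay in 6 of 67 (8.96%) and in 4.05% of all genes. A match is a description of the letters and not a binding site. The stretches around the motifs are shown for 2 genes found almost only in ependymal cells, for Cfap161 with 3 copies of the short motif, and for Cfap298, which stood at the same level in ependymal and choroid plexus cells and holds the palindromic form. Capitals mark the motifs or their reverse complements, GGCAAC for the short RFX motif and GTAAACA for the forkhead motif.
Ccdc153, chr9:44240495-44240560, plus strand, 182 to 117 bases before the start: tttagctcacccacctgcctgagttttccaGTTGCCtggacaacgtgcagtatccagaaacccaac
Sntn, chr14:13670626-13670845, plus strand, 250 to 31 bases before the start: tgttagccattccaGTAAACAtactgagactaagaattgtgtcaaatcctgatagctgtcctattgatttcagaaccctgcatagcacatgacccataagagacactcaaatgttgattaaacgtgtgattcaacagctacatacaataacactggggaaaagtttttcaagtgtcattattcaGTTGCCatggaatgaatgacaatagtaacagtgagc
Cfap161, chr7:83794843-83794935, minus strand, 96 to 4 bases before the start: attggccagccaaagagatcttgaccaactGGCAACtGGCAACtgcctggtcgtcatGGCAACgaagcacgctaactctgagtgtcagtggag
Cfap298, chr16:90934874-90935067, minus strand, 218 to 25 bases before the start: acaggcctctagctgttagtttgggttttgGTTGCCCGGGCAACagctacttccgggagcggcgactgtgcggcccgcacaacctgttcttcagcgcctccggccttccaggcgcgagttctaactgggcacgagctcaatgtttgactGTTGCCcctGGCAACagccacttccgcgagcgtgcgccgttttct

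The deposited data held 19834 cells in 12 cell types named by the authors and 12 libraries of 611 to 2772 cells and 3964338 to 17656020 UMIs. The markers listed for each type were highest in that type, among them 8 of 8 for ependymal cells, none of them one of the 84 genes, and 12 of 12 for choroid plexus. Of the ependymal markers, Fam183b, Dynlrb2 and Tppp3 are themselves motile cilium genes. The types also come from a clustering of the same counts, so the markers are a description. Ependymal cells numbered 173 and choroid plexus cells 3233, with medians of 7846 and 3725 UMIs per cell. In all, 56 cell barcodes were found in more than 1 library. Of the ependymal cells, 3 shared a barcode with a cell of another type. Of the choroid plexus cells, 27 had a barcode found in more than 1 library. PBS nonstim 1 and PBS stim 1 stood apart in the choroid plexus, with 29 and 18 cells, and with choroid plexus markers at 72749 and 42505 CPM against 117326 to 244122 in the other 10 libraries. Of their choroid plexus cells 75.9% and 94.4% were in the authors' cluster 3, against 39.6 to 55.6% elsewhere. CPM values are UMIs scaled to a common total, taken over all cells of a type or over its cells in 1 library. Because 3′ tags depend on annotated transcript ends, CPM are compared here between cells and not between genes.

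Ependymal cells held more of these transcripts than any other type. The 84 genes summed to 20374 CPM there, to 2975 in choroid plexus and to 326 to 848 in the other 10 types. Of 78 genes with at least 3 ependymal UMIs, 74 were highest in ependymal cells, and 32 (41.0%) were at least 10 times higher than in each of the other 11 types (called restricted here), where a type with under 3 UMIs was set at 3. Among all 13202 genes with 3 ependymal UMIs, 155 (1.17%) did so. The types come from a clustering of the same counts, 38 of the 84 genes (45.2%) were among the 5000 that the authors marked as highly variable, against 15.5% of all genes, and the comparison of types is therefore a description with no test. Just inside the limit were Cfap157 and Cfap47 at 10.5 times, and just outside it Cfap70 at 9.84 and Cfap45 at 9.41. At 5 times, 42 genes passed, and without cells over 10% mitochondrial UMIs 22 passed at 10 times. Of the 46 genes short of 10 times, 7 did so only through the limit of 3 UMIs, which stands at 7.58 CPM in the 72 fibroblasts.

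**Figure D1:**
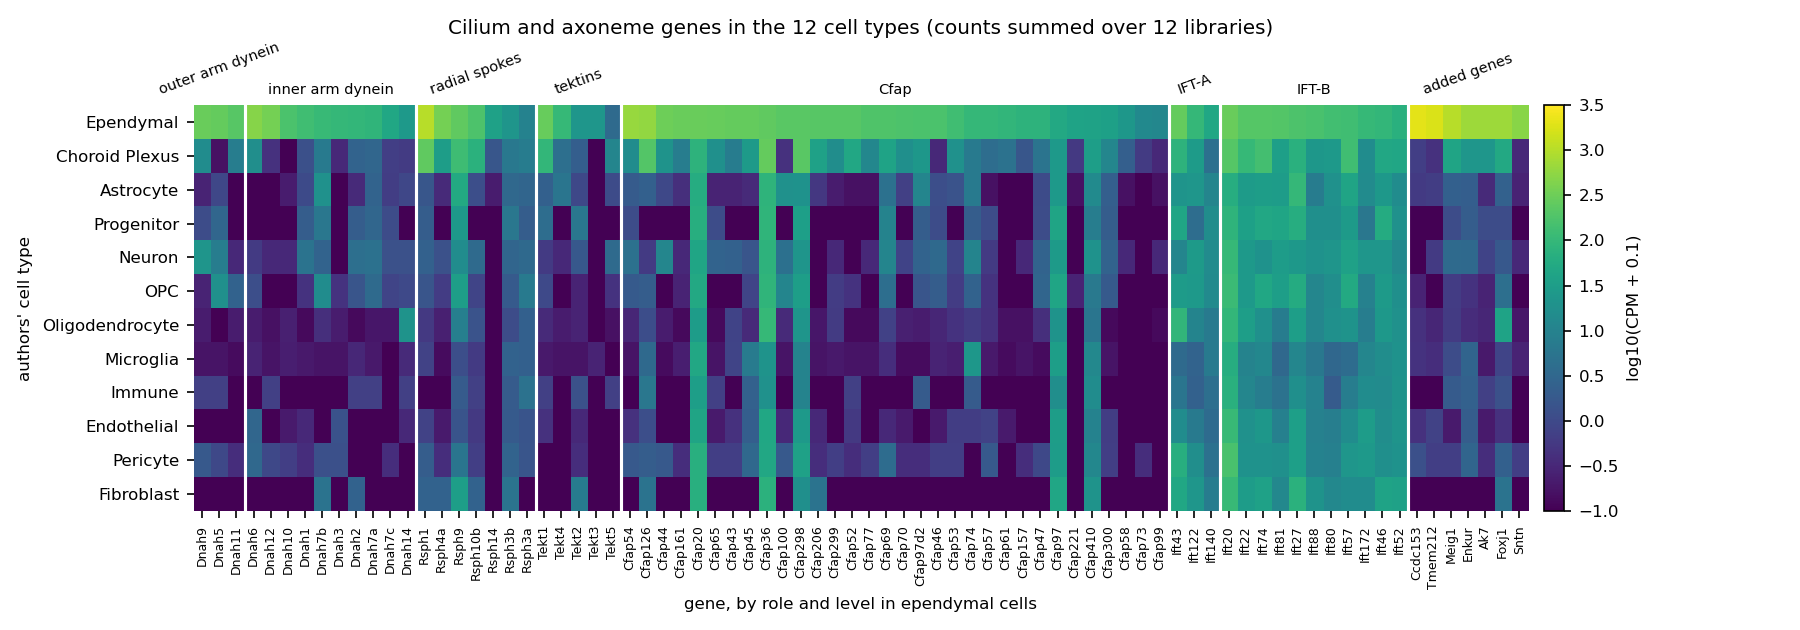
Levels of the 78 cilium and axoneme genes with at least 3 ependymal UMIs (columns, grouped by role) in the 12 cell types (rows), as log10 of CPM plus 0.1 with counts summed over all libraries. The ependymal row is bright throughout, the choroid plexus row in part, and the Ift columns are filled in every type.

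The 7 genes added by name were all among the 32. Ccdc153, a coiled-coil protein of the axoneme (ENSMUSG00000070306.3, chromosome 9, 44240676 to 44247306, GRCm38), stood at 2084 CPM in ependymal cells and 0.57 in choroid plexus, and was found in 97.7% and 0.31% of their cells. Tmem212, a transmembrane protein (chromosome 3, 27866066 to 27896368), stood at 1779 and 0.34 CPM. Sntn, sentan, a protein of the ciliary tip (chromosome 14, 13670876 to 13683148), stood at 503 and 0.23 CPM. These 3 genes did not exceed 1.15 CPM in any type but ependymal cells. The other 4 were lower in choroid plexus than in ependymal cells but clearly present there. Meig1, which is known from sperm flagella, stood at 1025 and 42.2 CPM, the adaptor Enkur at 699 and 23.1, the adenylate kinase Ak7 at 692 and 22.8, and the regulator Foxj1 at 682 and 51.4. Foxj1 was found in 84.4% of ependymal and 20.5% of choroid plexus cells, and in 56.7% and 7.19% after each cell was thinned to 1500 UMIs, which left out 16 ependymal and 493 choroid plexus cells.

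Dynein heavy chains, the motors, showed a wide gap between the 2 ciliated epithelia. All 13 with ependymal UMIs were at least 10 times higher in ependymal than in choroid plexus cells. The 10 inner arm chains summed to 1605 CPM in ependymal and 32.4 in choroid plexus cells, and the outer arm chains to 777 and 24.1. Of the inner arm chains, Dnah6 stood at 482 and 17.0 CPM and Dnah12 at 357 and 0.34. Dnah10 stood at 170 CPM in ependymal cells and had 0 UMIs in choroid plexus, which allows up to 0.171 CPM (3 UMIs, counting error only), so that it was at least 990-fold higher. Of the outer arm chains, Dnah9 stood at 291 and 15.4 CPM, Dnah5 at 273 CPM and a single UMI in choroid plexus, and Dnah11 at 213 and 7.94 CPM. Dnah8 and Dnah17, also outer arm chains, had 0 ependymal UMIs, and Dnah8 was highest in oligodendrocyte precursors (OPCs) at 9.23 CPM. Dnah7a, Dnah7b and Dnah7c share sequence with each other, as do Rsph3a and Rsph3b, so their separate levels are uncertain.

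Radial spokes, and tektins in part, were shared more evenly. Of the 5 tektins, 3 were at least 10 times higher in ependymal than in choroid plexus cells. Spoke genes summed to 1906 CPM in ependymal and 499 in choroid plexus cells. Rsph1, a spoke head protein (chromosome 17, 31255019 to 31277383), stood at 1052 and 252 CPM and was found in 94.8% and 57.2% of cells, against at most 1.39% in any other type. Rsph4a, in the spoke head as well, stood at 360 and 31.7 CPM, and Rsph9 at 247 and 124. Outside ependymal and choroid plexus cells, spoke genes summed to between 5.72 CPM in endothelium and 62.2 in astrocytes, where Rsph9 had 870 UMIs. Of the tektins, Tekt1 stood at 285 and 96.2 CPM, Tekt4 at 102 and 4.23, and Tekt2 at 22.8 and 2.11. Tekt5 was the exception, with 3.56 CPM in ependymal cells, which rests on 5 UMIs, and 11.3 in choroid plexus cells. Tekt3 stood at 22.8 CPM in ependymal cells and had 0 UMIs in choroid plexus, hence at least 133-fold higher.

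The Cfap genes were spread over the whole range. They summed to 5979 CPM in ependymal and 1192 in choroid plexus cells, and 13 of the 32 measured were among the 32 restricted ones. Cfap54, a protein of the central pair, stood at 629 and 15 CPM, Cfap44, known from sperm flagella, at 321 and 20.3, and Cfap126 (Flattop), which helps to place basal bodies, at 601 and 197. Cfap36 stood at 252 and 275 CPM and Cfap298 at 222 and 227, so that neither was higher in ependymal cells. Cfap20, Cfap36 and Cfap298 were present in every type, with Cfap20 between 30.3 CPM in oligodendrocytes and 80.6 in choroid plexus beside 292 in ependymal cells.

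Transport genes did not follow the motors. All 11 IFT-B genes were under 10 times higher in ependymal than in choroid plexus cells, and they summed to 1785 CPM in ependymal cells, 853 in choroid plexus and 160 to 422 elsewhere. Ift20 stood at 297 and 205 CPM, Ift22 at 210 and 102, Ift74 at 202 and 145, and Ift57 at 131 and 134. The 3 IFT-A genes summed to 422 and 116 CPM, with Ift43 at 275 and 81.4, Ift122 at 99.8 and 29.8, and Ift140 at 47.1 and 4.51. None of the 14 IFT genes was among the 32. The same held for a second list of ciliary transport genes outside the 84 (BBSome subunits, kinesin and others), where 0 of 24 measured genes reached 10 times, while 18 of 58 (31%) did in a list of other motile cilium genes.

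**Figure D2:**
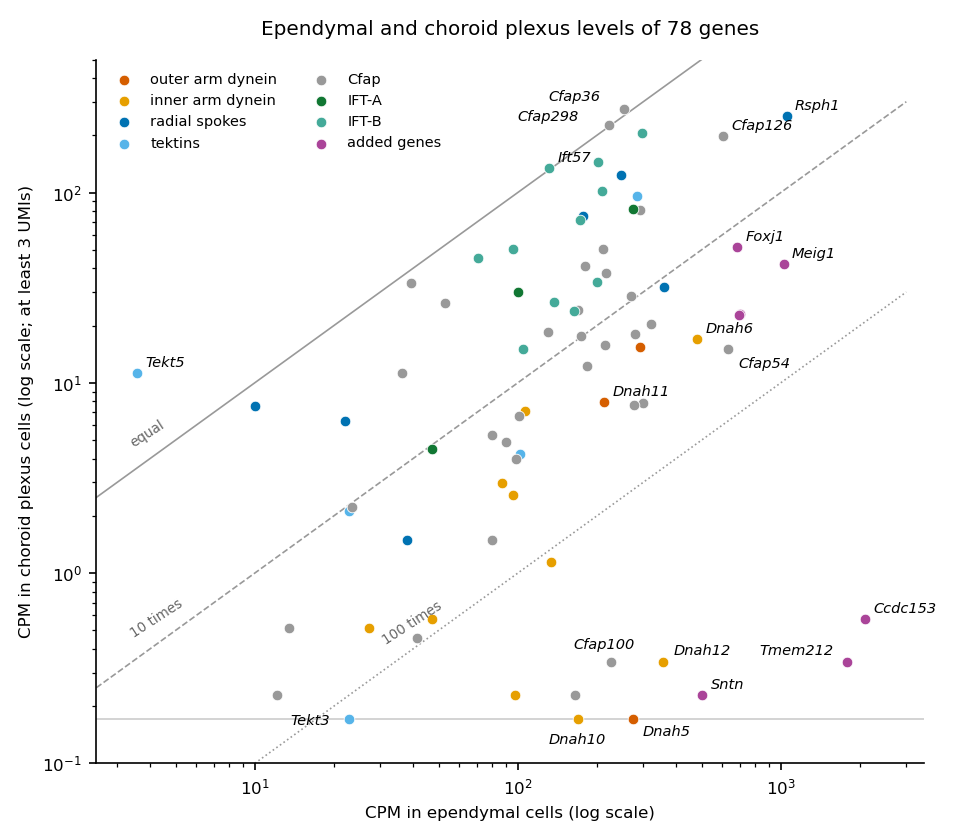
Each point is 1 of 78 genes, at its CPM in ependymal cells (x, log scale) and in choroid plexus cells (y, log scale, genes under 3 UMIs set at 3, the grey horizontal line), coloured by role. Lines mark equal levels and ependymal levels 10 and 100 times higher; IFT-B genes lie at or between the lines of equal level and 10 times, and dynein heavy chains below the line of 10 times.

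By the ratio of ependymal to choroid plexus levels, 11 of the 78 genes were under 2 times, 23 from 2 to 10, 33 from 10 to 100 and 11 at 100 or more. The last 11 were Tmem212, Ccdc153, Sntn, Dnah1, Dnah3, Dnah5, Dnah10, Dnah12, Cfap46, Cfap100 and Tekt3, which is 14.1% of the genes against 2.54% of all 13202. The short RFX motif did not order these classes. Windows with it numbered 2 of 11, 8 of 16, 11 of 26 and 5 of 10 from the lowest to the highest class.

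The 32 restricted genes were picked on these same counts, so their sum per cell is a description. Together they gave a median of 108 UMIs per ependymal cell (1 to 313), 1 per choroid plexus cell (0 to 23) and 0 in each of the other 10 types. Of those 10, pericytes reached 32 UMIs, with 2 cells at 20 or more, and the other 9 at most 9. A median of 50 of the 84 genes was detected per ependymal cell (2 to 70) and 8 per choroid plexus cell, and up to 30 in a pericyte. The authors' other column of cell names called 159 of the 173 cells ependymal and left 14 unnamed. It also gave that name to 7 choroid plexus cells, in which Ccdc153 and Tmem212 had 0 UMIs and all 7 had Ttr, the transthyretin of choroid plexus.

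A few of the genes stood out in cells with no known motile cilia. Foxj1 reached 40.4 CPM in oligodendrocytes, where it was found in 19.7% of cells, and no more than 5.05 CPM in the 9 types other than these, ependymal cells and choroid plexus. Rsph1, at 252 CPM in choroid plexus, was at 0.45 CPM in the same oligodendrocytes. Dnah14, a dynein heavy chain, reached 20.7 CPM in oligodendrocytes (11.3% of cells) beside 27.1 in ependymal cells and at most 1.18 elsewhere. Cfap74 reached 24.0 CPM in microglia, Cfap100 19.0 in astrocytes, Dnah9 21.8 in neurons and Dnah5 17.9 in OPCs. Dnah2os, an RNA on the strand opposite to Dnah2, had 0 ependymal UMIs, 3.94 CPM in choroid plexus and 8.08 in endothelium.

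Ependymal cells were few in each library: 11, 26 and 23 in PBS nonstim, 1, 21 and 21 in PBS stim, 16, 15 and 18 in Cisplatin nonstim, and 2, 3 and 16 in Cisplatin stim. Levels are given for the libraries with at least 5 cells. PBS nonstim 1 stood apart among them, with a median mitochondrial share of 23.9% per ependymal cell against 4.51 to 8.12% in the other 8. The part of this share in the values was not tested. With PBS nonstim 1 left out, the fit of 3 groups described below also called 0 of these genes in either comparison. Ccdc153 stood at 1699, 2225 and 2304 CPM in PBS nonstim, at 2288 and 2026 in replicates 2 and 3 of PBS stim, at 1355, 2361 and 2154 in Cisplatin nonstim, and at 2205 in Cisplatin stim 3. The groups overlapped, and replicate 1 was the lowest of its group in PBS nonstim and Cisplatin nonstim. Foxj1 stood at 607, 743 and 509 CPM in PBS nonstim, 478 and 477 in PBS stim, 788, 735 and 1031 in Cisplatin nonstim, and 788 in Cisplatin stim 3. Both PBS stim libraries lay below all the others, and PBS nonstim and Cisplatin nonstim overlapped. Dnah6 stood at 388, 554 and 589 CPM in PBS nonstim, 581 and 603 in PBS stim, 267, 445 and 374 in Cisplatin nonstim, and 469 in Cisplatin stim 3.

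**Figure D3:**
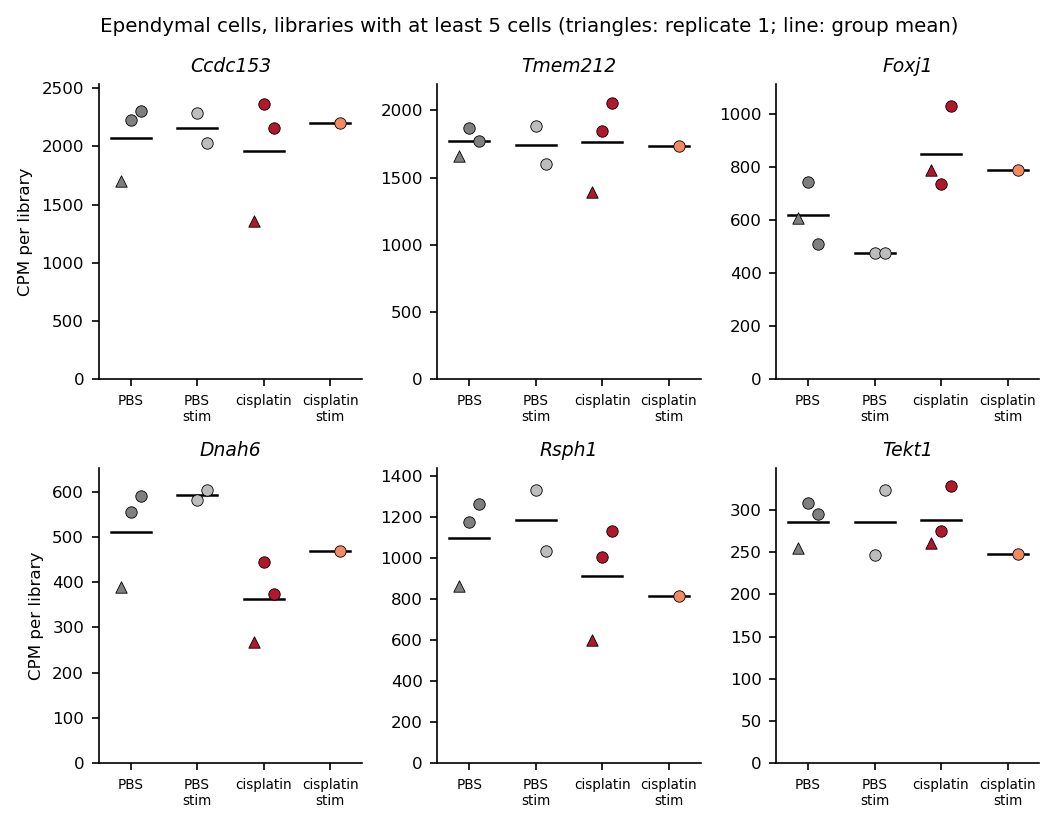
Points are CPM per library in ependymal cells for 6 genes (y, from 0), by group (x), for the 9 libraries with at least 5 cells; triangles are replicate 1 and lines are group means. Ccdc153, Tmem212, Rsph1 and Tekt1 overlap between groups, and Foxj1 is lowest in the 2 PBS stim libraries.

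None of these genes was called changed in ependymal cells. The design asked for a fit only where each group kept at least 2 libraries of 5 cells, and Cisplatin stim kept 1, so the other 3 groups were fitted, a choice made after the cell numbers were seen. Cisplatin nonstim against PBS nonstim called 0 of 63 genes tested, with 3 at an unadjusted p under 0.05 against 9.18% of all genes (edgeR quasi-likelihood test, Benjamini-Hochberg over 3803 genes; DESeq2 called 0 as well), where 0.526% of all genes were called. The smallest p belonged to Dnah6 (log2 fold change −0.57 ± 0.20 (SE), edgeR adjusted p = 0.324), Dnah7a (−0.79, adjusted p = 0.503) and Ift43 (−0.48, adjusted p = 0.519). For Foxj1 the log2 fold change was 0.39 ± 0.19 (edgeR adjusted p = 0.554). PBS stim against PBS nonstim called 0 of 63 by edgeR and by DESeq2, with 1 at an unadjusted p under 0.05, where 0% of all genes were called and 3.73% were at an unadjusted p under 0.05. Cfap57 (−0.87), Foxj1 (−0.45) and Rsph10b (0.55) had the smallest p (edgeR adjusted p = 0.998 each). A fit of all 4 groups was added after the data were seen, with the lone Cisplatin stim library assumed to vary like the others. By edgeR it called 0 of 68 genes in each of the 5 comparisons: cisplatin without stimulation (0.515% of all 4859 genes called), stimulation under cisplatin (0.0412%), stimulation under PBS (0.0206%), the interaction (0.0412%) and cisplatin averaged over stimulation (0.844%). At an unadjusted p under 0.05 there were 3, 2, 2, 2 and 9 of the 68, against 8.21%, 7.74%, 3.81%, 6.19% and 11.5% of all genes.

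In choroid plexus the comparison of cisplatin with PBS gave calls when both stimulation groups were averaged. Of 50 genes tested, 2 rose and 6 fell (edgeR quasi-likelihood test, adjusted p under 0.05), where 14.4% of the 7952 genes were called, 5.96% higher and 8.43% lower. The 8 calls are 16% of the 50 genes, near the share of all genes, and the medians of the log2 fold change were 0.02 for the 50 and −0.01 for all. Fewer cells with a transcript and less of it per cell are not separated by these sums. Dnah6, an inner arm motor (chromosome 6, 73017606 to 73221651), stood at 13.0, 32.2 and 33.7 CPM in PBS nonstim, 19.9, 32.0 and 35.0 in PBS stim, 6.52, 8.31 and 11.95 in Cisplatin nonstim, and 2.84, 8.34 and 5.24 in Cisplatin stim. All 6 cisplatin libraries lay below all 6 PBS libraries, although the gap was narrow and PBS nonstim 1 and PBS stim 1 rest on 2 UMIs each. The drop of Dnah6, a log2 fold change of −1.85 ± 0.22 (SE), was called (edgeR adjusted p = 0.0018). It was called in 21 of 23 alternatives, with log2 fold changes from −2.20 to −1.07, and not in the authors' cluster 3 alone or with the ribosomal RNA-like covariate described below. Transcripts of Ccdc153, which mark ependymal cells, were near 0 in these cells: it had 2923 UMIs beside 676 of Dnah6 in ependymal cells, and 10 beside 297 in choroid plexus. The 8 ependymal markers summed to 335 to 492 CPM in the PBS and 278 to 436 in the cisplatin libraries. Among them Dynlrb2 (186 CPM), itself a motile cilium gene, and Mia (126 CPM) led in choroid plexus. The part of ependymal transcripts in the Dnah6 values was not tested.

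The other genes that fell were a second motor, 2 transport genes and 2 Cfap genes. Dnah11, an outer arm chain, stood at 0, 14.7 and 22.5 CPM in PBS nonstim, 0, 12.2 and 14.1 in PBS stim, 1.09, 4.07 and 9.56 in Cisplatin nonstim, and 2.84, 3.89 and 4.36 in Cisplatin stim. It fell by 1.55 ± 0.34 (edgeR adjusted p = 0.0148), and the groups overlapped through the first-batch PBS libraries, where it had 0 UMIs. Ift172, an IFT-B subunit, stood at 20.6 to 33.7 CPM in the 6 PBS libraries and 7.86 to 16.7 in the 6 cisplatin libraries, without overlap, and fell by 0.92 ± 0.24 (edgeR adjusted p = 0.0251). Ift80, also of IFT-B, fell by 0.92 ± 0.22 (adjusted p = 0.0198), with cisplatin libraries within 16.7 to 20.1 CPM and PBS libraries from 13.0 to 52.7. Cfap65 (log2 fold change −0.96 ± 0.30, edgeR adjusted p = 0.0431) and Cfap70 (−0.77 ± 0.22, adjusted p = 0.0337) fell with overlapping groups. The genes that rose were Enkur, at 12.6 ± 8.93 CPM in PBS and 25.4 ± 6.31 in cisplatin libraries (SD, n = 6 each; log2 fold change 0.88 ± 0.25, edgeR adjusted p = 0.0335), and Cfap206, a spoke and central pair protein, at 30.4 ± 6.09 and 41.3 ± 7.28 CPM (0.59 ± 0.16, edgeR adjusted p = 0.0302). Both overlapped between PBS and cisplatin.

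**Figure D4:**
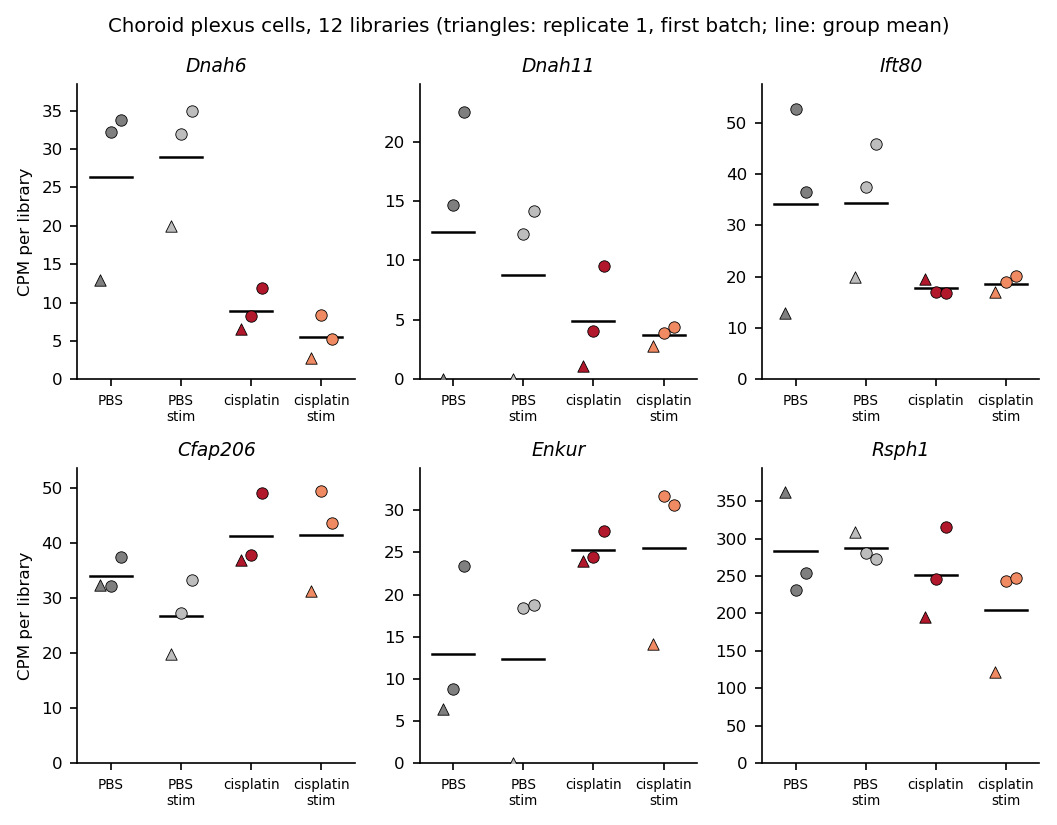
Points are CPM per library in choroid plexus cells for 6 genes (y, from 0), by group (x); triangles are replicate 1 of the first batch and lines are group means of 3 libraries. Dnah6 lies at 2.84 to 11.95 CPM in the cisplatin libraries and at 13.0 to 35.0 in the PBS libraries, while Dnah11, Ift80, Cfap206, Enkur and Rsph1 overlap.

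The choroid plexus calls rested on the second batch. Leaving out any 1 of the 4 first-batch libraries gave 13 to 18 called genes, and leaving out any 1 of the 8 second-batch libraries gave 1 to 3. These counts are not set beside the share of all genes called in the same fits. They describe the comparison and not these genes apart from others. In the second batch alone 26 of 52 genes were called, 13 higher and 13 lower, and all 8 above were among them, where 51.2% of all genes were called. Those that fell included 5 motors, Dnah2 (−2.06 ± 0.46), Dnah6 (−1.87 ± 0.21), Dnah11 (−1.63 ± 0.30), Dnah7b (−1.16 ± 0.33) and Dnah9 (−0.72 ± 0.23). Those that rose included Cfap126 (1.28 ± 0.12), Cfap20 (0.93 ± 0.12) and the IFT-B genes Ift57, Ift22, Ift27 and Ift20 (0.79 ± 0.10, 0.73 ± 0.12, 0.69 ± 0.13 and 0.48 ± 0.10).

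Gene length moved with these calls. The 13 second-batch genes that fell had a median of 10606 exon bases (4289 to 19980), and 12 of the 13 that rose, for which a length was at hand, 2047 (1525 to 4451), so that the ranges overlapped only at Cfap70 and Cfap20. Dnah6 has 13247 exon bases and Enkur 1561. The same held for all genes in the main comparison: genes called lower had a median of 8288 exon bases, those called higher 2561 and all tested 4457, and of 889 genes with at least 10000 exon bases 88.9% had a negative log2 fold change. The share of ribosomal RNA-like transcripts (Gm42418, AY036118 and Lars2) was 1.87 to 3.65% in the second-batch PBS libraries and 0.340 to 0.782% in the other 8. With that share as a covariate 0 of the 50 genes were called, and in the second batch drug and share cannot be told apart. How many of all genes were called with the covariate is not given here, so the loss cannot be read as particular to these genes. The part of length in the calls was not tested.

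Without averaging, choroid plexus gave no calls by this test. Cisplatin nonstim against PBS nonstim called 0 of 50 genes, with 14 at an unadjusted p under 0.05, where 0% of all genes were called and 23.2% were at an unadjusted p under 0.05. DESeq2 called 1, and 19 of 52 were called in the second batch alone, where 36.8% of all genes were. Dnah6 (−1.62 ± 0.30), Dnah11 (−1.69 ± 0.46) and Ift172 (−1.05 ± 0.34) had the smallest p (edgeR adjusted p = 0.0631, 0.09 and 0.112). Stimulation called 0 of 50 genes in cisplatin mice, 0 in PBS mice and 0 in the interaction by edgeR and by DESeq2, where 0% of all genes were called in each. At an unadjusted p under 0.05 there were 2, 0 and 2 of the 50, against 1.8%, 1.46% and 2% of all genes. In cisplatin mice the smallest p belonged to Rsph3a (−2.08 ± 0.68), Cfap77 (−0.74 ± 0.35) and Foxj1 (−0.52 ± 0.25), with edgeR adjusted p = 1 each. In PBS mice it belonged to Rsph3a (1.87 ± 0.91), Cfap44 (−0.57 ± 0.33) and Cfap161 (−0.66 ± 0.41), and in the interaction to Rsph3a (−3.95 ± 1.12), Cfap77 (−1.23 ± 0.54) and Ift74 (−0.59 ± 0.30), with edgeR adjusted p = 0.9998 or above in each case.

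Among these genes, the smallest adjusted p in any cell type and comparison tested was that of Dnah14 in oligodendrocytes, the myelinating cells. Dnah14 (ENSMUSG00000047369.15, chromosome 1, 181576559 to 181815774, plus strand, GRCm38) stood at 13.2, 6.37 and 7.08 CPM in PBS nonstim, 7.07, 7.80 and 6.85 in PBS stim, 20.7, 38.3 and 27.6 in Cisplatin nonstim, and 50.6, 49.1 and 41.5 in Cisplatin stim. All 6 cisplatin libraries lay above all 6 PBS libraries, and all 3 Cisplatin stim libraries above all 3 Cisplatin nonstim libraries. Cisplatin nonstim against PBS nonstim gave a log2 fold change of 1.86 ± 0.24 (SE; edgeR adjusted p = 2.2e-04), and cisplatin averaged over stimulation 2.28 ± 0.18 (edgeR adjusted p = 5.3e-08), where 6.25% and 23.3% of all genes in these cells were called. Stimulation within cisplatin mice gave 0.65 ± 0.20 (unadjusted p = 0.00462, edgeR adjusted p = 0.167) and the interaction 0.83 ± 0.39 (edgeR adjusted p = 0.612), so neither was called. The averaged change was called in 20 of 20 alternatives, and that without stimulation in 19 of 20, the exception being the ribosomal RNA-like covariate. Over those alternatives the log2 fold change was 1.44 to 2.48 averaged and 0.89 to 2.33 without stimulation, lowest with that covariate in both (edgeR adjusted p = 0.0328 and 0.661).

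Dnah14 was higher after cisplatin in each of the 4 oligodendrocyte clusters. Over summed counts it stood at 4.01 CPM in PBS and 32.6 in cisplatin cells of cluster 2, at 4.09 and 25 in cluster 7, and at 13.8 and 50.1 in cluster 8. In cluster 11, nearly all of whose cells came from the first batch, it stood at 12.9 and 42.3. In the 10 types other than oligodendrocytes and ependymal cells at most 0.56% of cells had a UMI. The gene is long, with 16235 exon bases, and more genes of such length were called lower than higher: of 1096 genes with at least 10000 exon bases, 67 were called higher and 243 lower in the averaged comparison. The 5 oligodendrocyte markers summed to 46081 to 55176 CPM in PBS and 38005 to 44032 in cisplatin libraries. The part of gene length and of these markers in the change of Dnah14 was not tested. Cfap410 also rose (log2 fold change 1.28 ± 0.29, edgeR adjusted p = 0.00326), from 3.45 ± 2.17 to 8.31 ± 3.04 CPM (SD, n = 6 each) with overlapping groups. Foxj1 stood at 37.9 ± 6.24 and 45.0 ± 9.09 CPM (0.31 ± 0.13, edgeR adjusted p = 0.0876) and was not called.

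**Figure D5:**
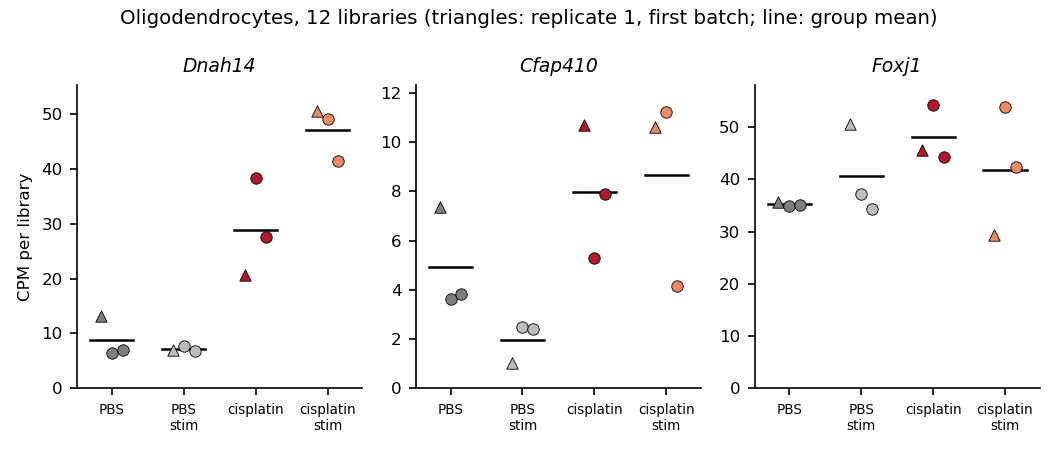
Points are CPM per library in oligodendrocytes for Dnah14, Cfap410 and Foxj1 (y, from 0), by group (x); triangles are replicate 1 of the first batch and lines are group means of 3 libraries. Dnah14 lies at 6.37 to 13.2 CPM in PBS and 20.7 to 50.6 in cisplatin libraries, and the other 2 genes overlap.

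Over the 8 types other than choroid plexus and ependymal cells that could be tested, the averaged cisplatin comparison called 9 of 115 tests of these genes, 3 higher and 6 lower (7.83%), where 9.12% of 61536 gene tests were called. Beside Dnah14 and Cfap410 the third gene higher was Cfap20, which stabilises axonemal doublets, in astrocytes (0.56 ± 0.14, edgeR adjusted p = 0.014). In neurons Cfap20 fell by 0.85 ± 0.26 (adjusted p = 0.0421) and Ift122, an IFT-A subunit, by 1.15 ± 0.36 (adjusted p = 0.0467). Ift122 stood at 25.1 to 61.7 CPM in PBS and 0 to 19.95 in cisplatin libraries, without overlap. The cisplatin values rest on 0 to 10 UMIs per library and the PBS values on 11 to 21. In microglia the IFT-B genes Ift52 and Ift20 fell (−0.56 ± 0.14 and −0.32 ± 0.10; edgeR adjusted p = 0.00883 and 0.0275), as did Cfap74 (−0.59 ± 0.15, adjusted p = 0.0137). In endothelium Ift43 fell, with a log2 fold change of −0.89 ± 0.26 (edgeR adjusted p = 0.0458). With 1 library left out at a time, Ift52 and Cfap410 were called in 12 of 12 fits, Cfap20 in neurons and Ift122 in 2 of 12 each and Ift43 in 1 of 12. With the ribosomal RNA-like covariate Dnah14 alone was called in this comparison. The share of all genes called in these fits is not given here.

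Cisplatin without stimulation called 1 of 115 tests (0.87%), Dnah14 in oligodendrocytes, where 1.86% of all gene tests were called. Stimulation called 0 of 115 tests in cisplatin mice, 0 in PBS mice and 0 in the interaction by edgeR, where 0.221%, 0% and 0.0276% of gene tests were called. At an unadjusted p under 0.05 there were 8, 5 and 8 of the 115, against 7.29%, 3.05% and 5.26% of gene tests. DESeq2 called 1 test without stimulation and 0 in each of these 3 comparisons.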

How the data were processed

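Single-cell RNA was captured with 10x 3′ chemistry from 12 hippocampal libraries. Per the submitters' processing notes, the authors used Cell Ranger 5.0.0, Scanpy and mm10. The deposited matrix holds whole-number UMI counts per gene and cell, with no normalization, and a deposited cell table gives the authors' cell types, clusters and a doublet score, of which the highest was 0.097. No further cells were removed. The genes, role lists and comparisons were chosen with earlier results of these data known.

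UMI counts of each library were added up within cell types, keeping sums of at least 10 cells (5 for ependymal cells). They were tested with edgeR 4.0.16 in R 4.3.3 (TMM scaling, filterByExpr, quasi-likelihood test with group and library prefix as terms), with Benjamini-Hochberg adjustment over all genes tested in that type and comparison and a threshold of 0.05. All 4 groups entered 1 fit except in ependymal cells. DESeq2 1.42.0 was an alternative, beside RLE scaling, no count filter, no batch term, a replicate block, leaving out each library, the second batch alone, a ribosomal RNA-like covariate, cells under 10% mitochondrial UMIs and single choroid plexus clusters. The fit was tested on simulated data. Differences between cell types were described and not tested.

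The report names the 7 added genes, the 3 genes of each role with most ependymal UMIs, and every gene called in a comparison or, where none was called, the 3 with the smallest p. Libraries held 3964338 to 17656020 UMIs. A limit of 3 UMIs covers counting error only. Figures were drawn with matplotlib 3.10.9.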

Additional observations from a re-analysis of the deposited data

Results flagged for a closer look

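Cfap20 moved in opposite directions in 2 cell types of the same libraries under the averaged cisplatin comparison, called higher in astrocytes and lower in neurons. Taken per library as log2(CPM + 1) in astrocytes minus that in neurons, its level was −0.18 ± 0.45 in PBS and 1.62 ± 0.61 in cisplatin libraries (SD, n = 6 each), with ranges of −0.83 to 0.30 and 0.91 to 2.48. The difference was 1.8, with no overlap between the ranges. An exact two-sided permutation of the 6 cisplatin and 6 PBS libraries gave p = 0.00216, the smallest it can give, without regard to batch. The gene was picked for its opposite calls after its values were seen, so this p is not independent evidence and the difference is a description. The neuron call held in 2 alternatives and was lost in 17, and the astrocyte call held in 14 and was lost in 6. Neurons under 10% mitochondrial UMIs were 22 of 86, 81 of 140 and 32 of 93 in PBS nonstim. They were 6 of 69, 42 of 78 and 61 of 88 in PBS stim. In Cisplatin nonstim they were 7 of 101, 9 of 77 and 6 of 60. In Cisplatin stim they were 2 of 192, 8 of 51 and 11 of 39. The part of these shares in the difference was not tested.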

How the results depend on the processing

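The averaged cisplatin comparison in choroid plexus, with 8 genes called, gave 3 with the replicate block, 0 with the ribosomal RNA-like covariate, 26 in the second batch alone, 3 in cluster 3 alone, 17 in cluster 4 alone, 23 without both first-batch PBS libraries (chosen after seeing the data) and 1 to 18 with 1 library left out. DESeq2 gave 6 and RLE scaling 9. Over all genes that comparison called 474 higher and 670 lower, and 316 and 897 with RLE scaling. Cisplatin without stimulation, with 0 called, gave 1 with RLE scaling, 1 with DESeq2, 4 with no count filter, 19 in the second batch alone, 14 in cluster 4 alone, 20 without both first-batch PBS libraries and 0 to 11 with 1 library left out, of which 11 without PBS nonstim 1, 2 without PBS stim 1 and 1 without Cisplatin nonstim 1 or Cisplatin stim 1. The interaction gave 1 with no count filter. In the other types, 9 averaged calls became 5 with DESeq2, 4 with no batch term, 1 with the covariate and 4 to 10 with 1 library left out, of which 5 without PBS nonstim 2 or 3, PBS stim 2 or Cisplatin nonstim 2 and 4 without Cisplatin stim 2. The 1 call without stimulation became 2 with no count filter, 4 in the second batch alone, 0 with the covariate and 1 to 2 with 1 library left out, of which 2 without Cisplatin nonstim 1 or Cisplatin stim 1. Stimulation in cisplatin mice gave 1 with no count filter, 1 with the covariate and 0 to 1 with 1 library left out, of which 1 without Cisplatin nonstim 2. The direction reversed for Dnah6 without stimulation in cluster 3 alone (0.04) and for Cfap65 averaged with the covariate (1.01). Most of these counts are not set beside the share of all genes called under the same setting. They therefore do not show whether these genes moved apart from all others. The causes were not tested. Replicate numbers were not treated as pairs, since in no cell type did every same-numbered pair have deviations correlated above 0.1: 17 of 18 did in microglia, 15 of 18 in oligodendrocytes, 14 of 18 in astrocytes, 5 of 18 in choroid plexus and 0 of 15 in pericytes, and replicate 1 is also the first batch. In ependymal cells the fit of 3 groups used 8 libraries, and fits of 4 groups with at least 3 or 5 cells per library called 0 genes as well in all 5 comparisons.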
